A study of Rattus norvegicus with 8 samples.

Results

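The T cell receptor complex and its partners were followed in the dorsal root ganglion of the rat, where the bodies of sensory neurons lie, through 10 genes: Cd3e, Cd3g, Cd3d, Cd8a, Cd8b, Cd4, Cd2, Cd5, Lck and Zap70. They were taken as every row of the deposited table that carries 1 of these symbols. All 10 genes were found, on 11 of the 22491 probes of the array, because Cd4 has 2 probes. The ligation group held 4 samples from Sprague Dawley rats at 7 days after spinal nerve ligation, a lasting injury of the nerve that leaves the ganglion and a common model of nerve pain. The control group held 4 samples of the same strain and day, titled contralateral and described as sham-operated, so that side and operation cannot be told apart. Each sample was pooled from 2 animals and was hybridised in Cy5 on 1 array against a common pool of control ganglia in Cy3, with no dye swap. The labels give neither age nor sex.

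The T cell receptor recognises a peptide held by an MHC molecule, and it passes the signal on through the CD3 chains, which carry no antigen specificity of their own. CD4 and CD8 are coreceptors that bind MHC class II and class I, and they bring the kinase LCK to the receptor. LCK phosphorylates the CD3 chains, and the kinase ZAP70 docks there. CD2 and CD5 are surface proteins of T cells that tune this signal. T cells are scarce in the intact ganglion and are known to enter it after injury of its nerve. In the rat, CD4 is also carried by monocytes and macrophages, and CD8 by natural killer (NK) cells and by some activated macrophages.

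Of the 11 probes, 9 rose in the ligated ganglia and 0 fell, so that 9 of the 10 genes (1 probe each, the brightest) rose. Cd3e and Cd5 changed most, and Zap70 and the other Cd4 probe did not pass the test. Of all 22379 tested probes, 58.6% passed the same test, 26.4% as rises and 32.2% as falls (limma, Benjamini-Hochberg adjusted p under 0.05 over all probes, n = 4 per group). Counted by gene, 66.2% passed, 30.2% as rises and 36.0% as falls. The median log2 change over the 10 genes, 1 probe each, was 0.93, beside -0.05 over all 10722 genes measured. At least a 2-fold rise was found for 5 of the 11 probes, against 4.67% of all probes. For 9 of the 11 probes the 4 ligation ratios all lay above the 4 control ratios, a pattern shown by 24.3% of all probes. In a bulk sample such as a ganglion, more T cells, more RNA per T cell and RNA from other cell types cannot be told apart.

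Most of these probes were dim, and this sets how finely their changes can be read. The deposited intensities are on a relative linear scale printed with 2 decimals, and 9 of the 11 probes lay below the median sample intensity of all probes (0.221). Of these 9 dim probes 7 rose, against 18.6% of all probes below that median. On the control arrays 30 of the 44 ratios of sample to pool were exactly 1 as printed, and on the ligation arrays 6 of 44. Printed this coarsely, the spread within the control group was 0 for some probes, and the standard errors (SE) of such probes can be too small. For each probe the lowest and the highest change that rounding of all 16 intensities allows is given as its rounding bounds. These bounds stayed above 0 for 6 probes. The ligation ratios stayed apart from the control ratios even at the bounds of every array for 3 of the 10 genes (Cd4, Cd2 and Cd5), against 23.2% of all genes.

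**Figure D1:**
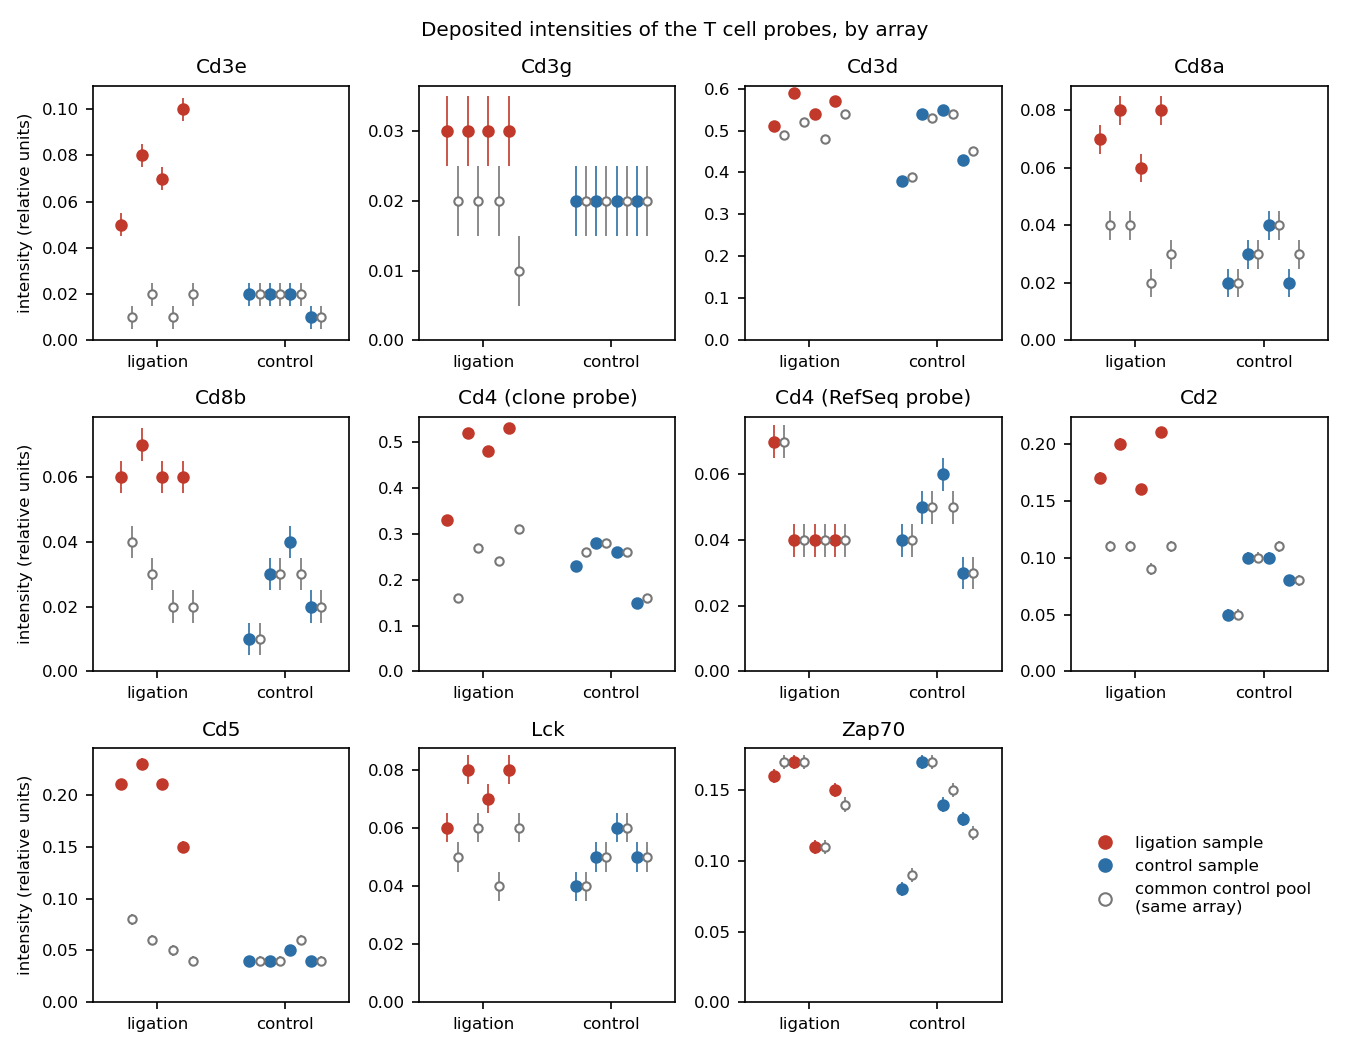
Intensity (relative units, from 0, 1 panel per probe) of the ligation samples in red, of the control samples in blue and, as open circles, of the common control pool on the same array, with bars for the rounding of each value. The Cd3e samples sit at 0.05 to 0.10 in ligation and at 0.01 to 0.02 in control, while the pool stays at 0.01 to 0.02 on all 8 arrays.

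Cd3e encodes the epsilon chain of CD3, present in every T cell receptor complex. Its sample intensities were 0.05, 0.08, 0.07 and 0.10 in ligation replicates 1 to 4, against 0.02, 0.02, 0.02 and 0.01 in control replicates 1 to 4. Even with rounding, the lowest ligation sample was above the highest control sample. The ratio to the pool rose 5.14-fold (log2 2.36 ± 0.15, SE, n = 4 per group, limma adjusted p = 1.14e-05), with rounding bounds of 0.85 to 4.12 on the log2 scale. Rounding alone allows a rise of 1.81-fold to 17.4-fold. The log2 change was 1.55 under quantile normalization and 0.93 with 0.05 added to both intensities, and passed in both. The probe is listed under a clone identifier (g3728820) that was not matched to a RefSeq accession here, so its name is the file's.

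Cd3g encodes the gamma chain, which pairs with epsilon. It was printed as 0.03 in all 4 ligation samples, against 0.02 in all 4 control samples, a single step of the printed scale. Its fitted log2 change was 0.83 ± 0.23 (SE, n = 4 per group, limma adjusted p = 0.0162). The rounding bounds ran from -0.55 to 2.36, so the printed values alone do not fix its direction. The pool itself was printed as 0.01 on ligation array 4 and 0.02 on the other 7.

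Cd3d encodes the delta chain, the other partner of epsilon, and its probe was the brightest of the 11. The sample intensities were 0.51, 0.59, 0.54 and 0.57 in ligation replicates 1 to 4, against 0.38, 0.54, 0.55 and 0.43 in control replicates 1 to 4, and the groups overlapped. The pool was at 0.48 to 0.54 on the ligation arrays and at 0.39 to 0.54 on the control arrays. Relative to it, the 4 ligation ratios lay just above the 4 control ratios, and the rise was 1.1-fold (log2 0.13 ± 0.04, limma adjusted p = 0.021, rounding bounds 0.08 to 0.19). This call is fragile: the adjusted p was 0.0513 to 0.0539 without any of ligation replicates 2 and 3 and control replicates 1 and 4. From the sample channel alone the change was -0.02.

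The 3 CD3 chains, which are built into 1 complex, thus gave very unequal changes. The log2 change of Cd3e exceeded that of Cd3d by 2.23, and it did so at any rounding (0.66 to 4.04), but it rests on the unmatched clone probe of Cd3e. An exact two-sided permutation test over the samples gave p = 0.0286, the smallest that 4 against 4 samples allow, and 0.0343 after Benjamini-Hochberg adjustment over the 6 pairs of probes compared. The pairs were chosen after the values had been seen. The difference between Cd3e and Cd3g had the same p, but its rounding bounds ran from -1.50 to 4.67. Only changes are compared here, because signals of different probes have no common scale.

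Cd3g, Cd3d and Cd3e follow each other on rat chromosome 8 in the RefSeq gene table, and Cd8b and Cd8a are neighbours on chromosome 4. Promoter windows from 250 bases before to 50 bases after the start of transcription, from RefSeq on the GRCr8 build, were matched for 8 of the 10 genes (not Cd8b and Cd4). The windows of Cd3e and of its neighbour Cd3d are shown because their probes differed so widely, and that of Cd5 because its change was the next in size. They are printed 5′ to 3′ on the strand of the gene, with capitals for 4 letter strings that match core sites of factor families active in T cells, on either strand. The strings were AGGAAG (ETS family), TGTGGT (RUNX family), AGATAA for the factors named after that core (GATA) and CTTTGA (TCF/LEF family), and no matches overlapped; they were picked with the values of these genes known.
Cd3e, chr8:54211721-54212020, minus strand: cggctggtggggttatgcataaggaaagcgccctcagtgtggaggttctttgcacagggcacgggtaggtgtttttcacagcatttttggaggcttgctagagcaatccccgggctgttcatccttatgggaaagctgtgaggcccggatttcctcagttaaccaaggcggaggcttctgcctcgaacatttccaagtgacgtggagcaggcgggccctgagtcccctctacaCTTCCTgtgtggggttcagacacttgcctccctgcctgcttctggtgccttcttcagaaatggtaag
Cd3d, chr8:54185269-54185568, plus strand: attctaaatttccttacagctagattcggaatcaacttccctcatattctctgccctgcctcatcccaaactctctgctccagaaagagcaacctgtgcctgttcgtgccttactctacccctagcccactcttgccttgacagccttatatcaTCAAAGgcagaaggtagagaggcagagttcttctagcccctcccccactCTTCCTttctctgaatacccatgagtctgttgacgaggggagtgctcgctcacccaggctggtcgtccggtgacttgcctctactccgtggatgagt
Cd5, chr1:216811160-216811459, minus strand: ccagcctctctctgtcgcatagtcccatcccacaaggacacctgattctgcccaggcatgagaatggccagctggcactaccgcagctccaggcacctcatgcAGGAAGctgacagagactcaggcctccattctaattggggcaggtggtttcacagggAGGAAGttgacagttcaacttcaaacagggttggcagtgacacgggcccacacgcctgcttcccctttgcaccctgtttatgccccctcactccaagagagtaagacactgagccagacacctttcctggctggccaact
AGGAAG or its reverse complement stood in the windows of 6 of the 8 genes (Cd3d, Cd3e, Cd3g, Cd5, Lck and Zap70) and in 34.3% of 27457 rat promoter windows. Cd3e held 1 such match, Cd3d 1 and Cd5 2. CTTTGA was found in Cd3d and Zap70 (15.9% of all windows), TGTGGT in Cd2 and Lck (16.9%) and AGATAA in 0 of the 8 (11.3%). A match describes letters in these windows only. The ETS string stood in both Cd3e and Cd3d and also in Zap70, which did not pass the test.

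The coreceptor CD8 is a dimer of the chains encoded by Cd8a and Cd8b. The Cd8a samples read 0.07, 0.08, 0.06 and 0.08 in ligation replicates 1 to 4, against 0.02, 0.03, 0.04 and 0.02 in control replicates 1 to 4. All ligation samples were above all control samples. Cd8a rose 2.55-fold (log2 1.35 ± 0.21, SE, n = 4 per group, limma adjusted p = 0.00109, rounding bounds 0.48 to 2.27), and by 0.62 on the log2 scale with 0.05 added to both intensities.

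Cd8b read 0.06, 0.07, 0.06 and 0.06 in ligation replicates 1 to 4, against 0.01, 0.03, 0.04 and 0.02 in control replicates 1 to 4, again without overlap. It rose 2.20-fold (log2 1.14 ± 0.24, limma adjusted p = 0.00433). Its rounding bounds were -0.05 to 2.38, and under quantile normalization between arrays it did not pass (log2 0.47, adjusted p = 0.293). With 0.05 added to both intensities its log2 change was 0.50. The change of Cd8a minus that of Cd8b was 0.21 on the log2 scale, which did not pass the exact two-sided permutation test (p = 0.314), and rounding allows -1.90 to 2.32.

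Cd4 was measured by 2 probes that disagreed. The brighter one, listed under a clone identifier (g3291128), read 0.33, 0.52, 0.48 and 0.53 in ligation replicates 1 to 4, against 0.23, 0.28, 0.26 and 0.15 in control replicates 1 to 4. It rose 2.01-fold (log2 1.01 ± 0.07, SE, n = 4 per group, limma adjusted p = 1.44e-05), with narrow rounding bounds of 0.90 to 1.12. The other, listed under the RefSeq transcript NM_012705, read 0.07, 0.04, 0.04 and 0.04 in ligation, against 0.04, 0.05, 0.06 and 0.03 in control, and its 4 ligation ratios were exactly 1. Its log2 change was -0.07 (adjusted p = 0.394, rounding bounds -0.74 to 0.61). The 2 changes differed by 1.07 (rounding bounds 0.29 to 1.86). The exact permutation p was 0.0286 (adjusted 0.0343), the smallest possible, for a pair chosen after the values had been seen. A rise of Cd4 therefore rests on the clone probe, whose name comes from the file and was not matched to a RefSeq accession here.

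**Figure D2:**
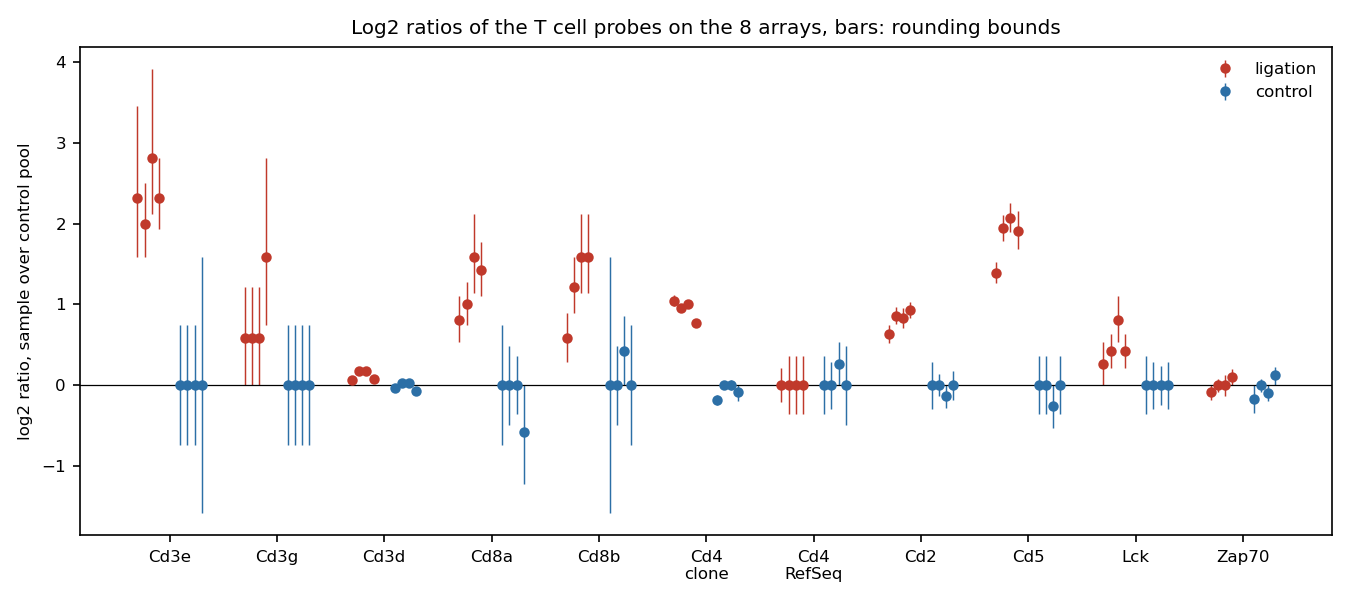
Log2 ratio of sample over control pool on each of the 8 arrays for the 11 probes, ligation in red left of control in blue, with replicates 1 to 4 from left to right and bars for the rounding bounds of each ratio. Cd5, Cd2 and the clone probe of Cd4 are apart at the bounds, whereas the bars of Cd3e in ligation (from 1.58) reach those in control (to 1.58).

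Cd5 encodes a receptor that damps T cell receptor signalling, and it is also found on a subset of B cells. Its samples read 0.21, 0.23, 0.21 and 0.15 in ligation replicates 1 to 4, against 0.04, 0.04, 0.05 and 0.04 in control replicates 1 to 4. Every ligation sample was far above every control sample. Cd5 rose 3.71-fold (log2 1.89 ± 0.15, SE, n = 4 per group, limma adjusted p = 2.98e-05), with rounding bounds of 1.39 to 2.41 and a log2 change of 1.25 with 0.05 added to both intensities. Of the 2 largest rises it is the one that rounding leaves best defined.

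Cd2 encodes an adhesion receptor of T and NK cells. Its samples read 0.17, 0.20, 0.16 and 0.21 in ligation replicates 1 to 4, against 0.05, 0.10, 0.10 and 0.08 in control replicates 1 to 4. The groups were apart, and Cd2 rose 1.80-fold (log2 0.85 ± 0.07, limma adjusted p = 3.53e-05, rounding bounds 0.55 to 1.15).

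Of the kinases, Lck rose and Zap70 did not pass the test. Lck read 0.06, 0.08, 0.07 and 0.08 in ligation replicates 1 to 4, against 0.04, 0.05, 0.06 and 0.05 in control replicates 1 to 4, where ligation replicate 1 and control replicate 3 were level. Relative to the pool it rose 1.39-fold (log2 0.48 ± 0.11, SE, n = 4 per group, limma adjusted p = 0.00668), with rounding bounds of -0.06 to 1.02. From the sample channel alone its log2 change was 0.28 and did not pass (adjusted p = 0.0787). Zap70 read 0.16, 0.17, 0.11 and 0.15 in ligation, against 0.08, 0.17, 0.14 and 0.13 in control, and the groups overlapped. Its log2 change was 0.04 ± 0.07 (adjusted p = 0.63), and rounding allows -0.18 to 0.26. Both kinase probes are listed under unmatched clone identifiers. The difference between Lck and Zap70 was 0.43, with rounding bounds of -0.32 to 1.19. Its exact permutation p was 0.0286 (adjusted 0.0343), the smallest possible, for a pair chosen after the values had been seen.

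**Figure D3:**
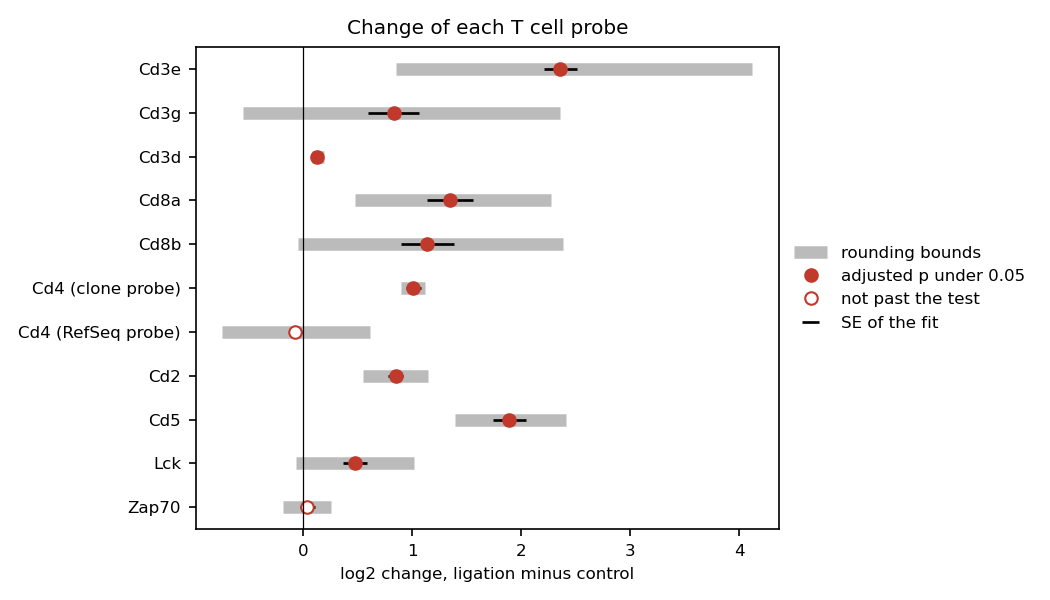
Log2 change (ligation minus control) of the 11 probes, with the SE of the fit as a black line and the rounding bounds as a grey bar; filled points passed the test. The grey bars of Cd3e, Cd3d, Cd8a, the clone probe of Cd4, Cd2 and Cd5 stay above 0.

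The authors' own test of sample against pool, made within each array, gives a second view of the dim probes. The authors' deposited table does not say how this p-value was computed. In the authors' deposited table it was under 0.05 in 28 of the 44 values of these probes on the ligation arrays, and in 0 of 44 on the control arrays, where the lowest was 0.21. The share of such values over all probes was not computed, so these counts have no background to be read against. By the p-values of the authors' deposited table, a rule added after the data were seen, a p under 0.05 and a ratio above 1 on all 4 ligation arrays were found for 6 probes (Cd3e, Cd8a, Cd8b, the clone probe of Cd4, Cd2 and Cd5), against 11.2% of all probes. For Cd3e the authors' deposited table gives 1.58e-06, 2.39e-06, 8.83e-14 and 7.88e-16 on ligation arrays 1 to 4. For Cd3g the authors' deposited table gives 0.30, 0.04, 0.05 and 0.14 there, and for Cd3d 0.71, 0.33, 0.29 and 0.55.

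Across the ligation arrays the T cell genes were not equally high. The mean log2 ratio of the 10 genes, 1 probe each, was 0.76, 0.92, 1.14 and 1.11 on ligation arrays 1 to 4, against -0.04, 0.00, -0.01 and -0.06 on control arrays 1 to 4. Their median was 0.61, 0.90, 0.92 and 1.17 on ligation arrays 1 to 4, highest on array 4 rather than 3. The standard deviation of the log2 ratios of all spots ran in the same order as the means (0.589, 0.603, 0.632 and 0.621). Of the 9 probes that rose, 6 had their lowest ligation ratio on array 1 alone and 4 their highest on array 3 alone, ties left out. Leaving out ligation replicate 1 kept the count of probes past the test at 9. The genes whose ratios ran most like the mean of the 10 genes over the 8 arrays were Emilin2, Ddx46, Plcb2, Tnfrsf1a and Nav2. Their Pearson correlations with it were 0.9962 to 0.9984. All ratios on an array share its sample and pool, and 2253 of the 10595 genes compared had a correlation above 0.9, so this likeness is a description only.

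The T cell receptor itself was looked up after the values of the 10 genes had been seen. The symbol Tcrb, the beta chain of the receptor, stood on 6 tested probes, of which 3 rose, 0 fell and 3 did not pass. Of all tested probes, 26.4% rose and 32.2% fell. The probe listed under g3813432 read 0.10, 0.13, 0.12 and 0.16 in ligation replicates 1 to 4, against 0.02, 0.02, 0.02 and 0.01 in control replicates 1 to 4. It rose 6.10-fold (log2 2.61 ± 0.27, limma adjusted p = 1.05e-04, rounding bounds 1.48 to 3.89). A second, listed under S60762, rose 2.20-fold (log2 1.14 ± 0.13, adjusted p = 1.69e-04, bounds 0.17 to 2.14), and the third by 0.38 on the log2 scale (bounds -0.13 to 0.90). Probes of this gene can lie in different segments of it and can share sequence with each other, which was not examined here.

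Other genes of T cell receptor signalling and costimulation moved less uniformly. Of 28 genes listed, 17 were measured, 9 rose and 2 fell, with a median log2 change of 0.11. These shares stand beside 30.2% of all genes that rose and 36.0% that fell. Under quantile normalization 6 of the 17 passed, against 11 without it. Cd27, a costimulatory receptor of the TNF receptor family, rose 7.02-fold (log2 2.81 ± 0.14, limma adjusted p = 3.34e-06, rounding bounds 1.44 to 4.51). Vav1, an exchange factor found in all blood cell lineages, rose 5.21-fold (log2 2.38 ± 0.10). Ctla4, an inhibitory receptor, had a log2 change of 0.00, with all values dim and rounding bounds of -0.59 to 0.59. The 2 genes that fell were Rasgrp1 and Cd7. Rasgrp1 fell by 1.1 on the log2 scale (SE 0.13, limma adjusted p = 2.08e-04, rounding bounds -1.88 to -0.36). For Cd7 the log2 change was -0.15, with rounding bounds of -0.31 to 0.02.

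Among T cell lineage factors and cytokine receptors, 4 of 10 measured genes rose and 2 fell (median log2 change 0.03), near the shares over all genes (30.2% and 36.0%), and 3 passed under quantile normalization. Tcf7, a transcription factor of T cell development, rose 2.48-fold (log2 1.31 ± 0.19, limma adjusted p = 6.24e-04). Il2rb, a chain of the interleukin 2 and 15 receptors, rose 1.80-fold. Cd44, an adhesion receptor of many cell types, rose 2.61-fold.

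Chemokines that attract T cells and their receptors were higher in 6 of 8 measured genes and lower in 0 (median log2 change 1.57), where 30.2% of all genes rose. Cxcl9, a ligand of CXCR3, rose 5.66-fold (log2 2.50 ± 0.13). Its receptor gene Cxcr3, found on activated T cells and NK cells, rose 5.04-fold (log2 2.33 ± 0.19, limma adjusted p = 3.57e-05, rounding bounds 1.42 to 3.28). Ccl19 did not pass (log2 0.12, adjusted p = 0.575).

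Markers of other cell types were measured in the same samples, and their part in these results was not tested. NK and cytotoxic markers rose in 5 of 13 measured genes and fell in 1 (median 0.08), where 30.2% of all genes rose. A summed intensity is weighted to the brightest probes of its list, so it is set only against the same sum in the other group. The sums are of sample intensities not scaled to the pool. The median sample intensity of all spots was itself higher on the ligation arrays (0.21 to 0.22) than on the control arrays (0.17 to 0.20). For the NK and cytotoxic markers the sum was 0.933 to 1.36 on the ligation arrays and 0.489 to 0.820 on the control arrays. Gzmb, a granzyme of cytotoxic T and NK cells, rose 7.06-fold on the brightest of its 3 probes, 2 of which passed. Other granzyme genes did not rise: Gzma (log2 -0.08) and Gzmk (0.08) did not pass, and Gzmm fell (-0.18, rounding bounds -0.50 to 0.13). Prf1 did not pass on the brighter of its 2 probes (-0.10), while the other passed (direction not reported here). Ncr3, an NK receptor, rose 1.85-fold (rounding bounds -0.03 to 1.83), Klrk1 rose 1.48-fold, and Klrg1 had a log2 change of 0.00 (rounding bounds -1.90 to 1.90).

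Macrophage and dendritic cell markers rose in 14 of 16 measured genes and fell in 0 (median 2.23), where 30.2% of all genes rose. Their summed intensity was 67.3 to 69.7 on the ligation arrays and 7.76 to 9.28 on the control arrays. Trem2, Cd74 and C1qb rose 10.1-fold, 10.6-fold and 6.38-fold. Cd163 did not pass on the brighter of its 2 probes (log2 -0.08), while the other passed (direction not reported here). Pan-leukocyte genes rose in 9 of 12 and fell in 0 (median 1.68), beside the same 30.2% of all genes. Their summed intensity was 26 to 30.4 in ligation and 12.8 to 17.8 in control. Ptprc (CD45) rose 5.85-fold, Rac2 3.49-fold and Itgb2 6.84-fold, while Cd37 did not pass (log2 -0.03). For the 10 T cell genes the sum was 1.65 to 2.05 in ligation and 0.890 to 1.28 in control, most of it from Cd3d and Cd4.

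B cell and neutrophil markers were few. The B cell marker Cd79b rose 1.2-fold on the brighter of its 2 probes, the other not passing, and the sums over 2 B cell markers were 0.22 to 0.31 in ligation and 0.19 to 0.22 in control. Of 3 neutrophil markers, Ncf1 rose 1.54-fold, while S100a8 (log2 0.00) and S100a9 (0.10) did not pass, with sums of 2.45 to 2.74 in ligation and 1.43 to 3.16 in control. Neither Cd79b nor Ncf1 passed under quantile normalization. None of the listed genes had a value of 0 on any array.

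The ganglion's own markers were present. Of 8 measured neuron markers 6 fell and 0 rose (median -1.41), where 36.0% of all genes fell. Their summed intensity was 15.9 to 19.4 in ligation and 35.8 to 40.5 in control. Nefh fell by 1.55 and Isl1 by 1.28 on the log2 scale, while Tubb3 did not pass (0.01). Of 7 satellite glia and Schwann cell markers, 3 rose and 4 fell (median -0.42), where 30.2% of all genes rose and 36.0% fell. Sums over the 6 with a value on every array were 34.9 to 37.3 in ligation and 35.2 to 42.4 in control. Fabp7 fell by 1.48 on the log2 scale and Erbb3 rose 1.17-fold. Under quantile normalization 3 of these 7 passed.

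**Figure D4:**
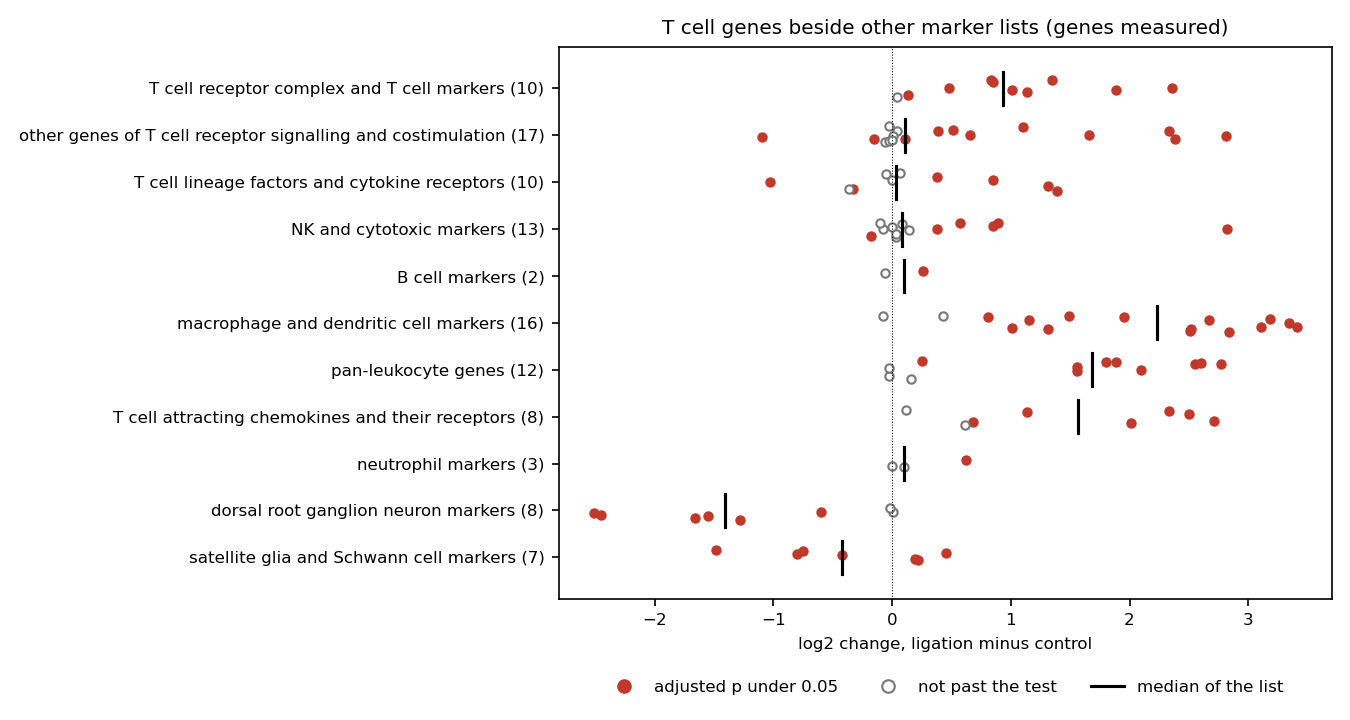
Log2 change (ligation minus control) of each measured gene in the T cell list and 10 other lists, 1 probe per gene, with filled points past the test and a black bar for the median of the list. The T cell median (0.93) lies below those of macrophage (2.23) and pan-leukocyte genes (1.68) and above that of the signalling list (0.11).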

How the data were processed

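The RNA input was 100 ng a sample, amplified in 2 rounds and hybridised on 2-channel arrays, per the labels' protocols. Agilent Feature Extraction 8.5.1.1 is named in the submitters' processing notes; how background and scale were handled is not stated there. The deposited table gives, per the file headers, an intensity per channel and the authors' p-value of their ratio within each array. A second deposited table holds log10 ratios, which matched the intensities within 0.005 for 100% of spots, so it was not analysed further. The spots of a probe were averaged (23557 spots, 22491 probes), and log2 ratios of sample over pool were used without further scaling, since the log10 median was 0 on every array. The 22379 probes with values on at least 2 arrays per group were fitted with lmFit and eBayes (limma 3.58.1, R 4.3.3), two-sided, with Benjamini-Hochberg adjustment over all probes; the fit was tested on simulated data. A gene took its brightest probe (10722 genes). The number of arrays limits the precision, and the median SE over all probes was 0.063. Median sample intensities were 0.21 to 0.22 on the ligation arrays and 0.17 to 0.20 on the control arrays. Python 3.11.15, pandas 2.3.3 and scipy 1.17.1 served for tables and permutation tests. All columns were mapped by name, with 0 left over.

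Rounding bounds move every intensity up or down by the most that rounding allows (0.005 from 0.01 up, and less below 0.01, where 3 digits are printed). RefSeq accessions gave the file's symbol for 7 of the 11 T cell probes; the other 4 carry clone identifiers. Named genes were all member probes, 3 genes of lowest adjusted p and 1 of least absolute change per other list, and the 5 most alike over the arrays; some genes that this rule picks are not reported here. Members and lists were chosen with earlier results of these data known. Alternatives were quantile normalization, the replicate block, a pseudocount of 0.05, the sample channel alone, bright probes only, trend and robust, probe means and leaving out each array. Samples with the same replicate number are not stated to share an origin.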

Additional observations from a re-analysis of the deposited data

Results flagged for a closer look

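Within a group of 4 samples, 1 value stood apart from the other 3 in 6 of the 22 groups of log2 ratios (11 probes in 2 groups), by Dixon's test. Chance gives about 1 such group in 20. In all 6 the other 3 ratios were printed as equal, so any different value stands apart. They were the Cd3g ratio of ligation replicate 4 (1.58, the others at 0.58), where the pool was printed as 0.01, and the Cd8a ratio of control replicate 4 (-0.58, the others at 0). In control replicate 3 they were the ratios of Cd8b (0.42), of the RefSeq probe of Cd4 (0.26), of Cd2 (-0.14) and of Cd5 (-0.26), with the others at 0. In 4 further groups all 4 ratios were printed as equal.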

How the results depend on the processing

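Of 145 refits of single T cell probes (alternatives and left-out arrays together), 136 kept direction and call, 7 lost the call and 2 reversed. The reversed values came from the sample channel alone, for Cd3d (-0.02) and Zap70 (-0.04). At the lowest value that rounding allows, Cd3g (-0.55), Cd8b (-0.05) and Lck (-0.06) reversed. Cd3d did not pass under quantile normalization (adjusted p = 0.285) nor without ligation replicate 2 (0.0513) or 3 (0.0539) or control replicate 1 (0.0538) or 4 (0.0527). The 9 T cell probes past the test were 8 to 9 when each array was left out in turn, 7 under quantile normalization and 7 from the sample channel alone. Only 2 of them lie above the median sample intensity, so 2 probes and 2 genes remained past the test there, 8573 probes over the table and 38 of the 67 genes of the other lists. By the stricter rounding rule, chosen after seeing the data, 3 T cell probes stayed apart. In all, 13105 probes passed, and 6368 under quantile normalization; the cause was not tested. With the replicate block 12577 probes and 9 T cell probes passed, and no T cell probe changed its call. Deviations of same-numbered samples correlated by 0.068 to 0.164, above 0.1 for 3 of 4 numbers, and every sample correlated best with its own number. This is a hint of pairing from the data; the labels do not state a shared origin. The coarse printed steps and 4 samples a group limit how small a change of a dim probe can be seen.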
